A study of Hordeum vulgare with 21 samples.

Results

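A group of 57 barley genes was defined by messages that were abundant in dry grain and still present, at lower levels, through all of malting. Members were chosen on stage means of TPM (an abundance per transcript length that sums to the same total in each library). The mean in dry grain had to be at least 400 TPM and the highest of the 7 stages, grain out of the steep had to stay above 25% of it, every stage above 12.5% of it, and the highest stage mean had to exceed the lowest by more than 1.5 times. The 57 genes were 17.4% of the 328 genes with a dry mean of at least 400 TPM, among 35826 genes in the tables. Their high level in dry grain and their lower level later are therefore the definition of the group and not a finding.

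Whole grain of Hordeum vulgare cultivar Conrad, a 2-row spring malting barley, was sequenced after poly-A selection at 7 stages with 3 libraries each. Dry is unmalted mature grain, DoG0 is grain out of the steep (38 h, to 45% moisture), and DoG1 to DoG5 are grain after 1 to 5 days of germination at 17 °C, collected every 24 h. The malted stages came from 3 micromalting runs of 110 g dry weight drawn from 1 lot, itself a mixture of 5 grain samples from 4 growing regions. All stages share this one genotype and lot, so the replicates speak of malting runs and of dry grain samples and not of crops or cultivars. Libraries carry the letters A, B and C, and the labels do not state whether a letter follows 1 malting run through all stages or is only a number within a stage.

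Mature cereal grain holds messenger RNA that was made while the grain filled and that survives drying. Living cells remain in the embryo and the aleurone layer, while the starchy endosperm is dead at maturity. When grain takes up water, part of this stored RNA is broken down and new RNA is made, so a message that persists may be an old molecule, a new one or both. Stored messages of cereal grain are known to include those for late embryogenesis abundant proteins, storage proteins and the translation machinery. The gene IDs of the tables could not be paired with gene names here, so no member is given a role, the tissue could not be checked against marker genes, and members are called by their rank in dry-grain TPM, from 1 for the highest to 57 for the lowest. In whole grain a lower level in fewer cells and a lower level in each cell cannot be told apart, and each level is a part of the transcript pool of its library.

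Library totals ran from 18145400 to 31582116 expected counts (estimated read counts per gene), and the lowest expected count of any member in any library was 353.66. Dry libraries held 18783859 to 25488566. Dry replicate A stood apart from the others: its 10 most abundant genes took 25.4% of TPM, against 15.7% in B and 16.9% in C. Within the group, dry replicate C was the highest of the 3 dry libraries for 29 members, A for 17 and B for 11, and B was the lowest for 34.

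The 57 genes together held 6.34% ± 1.04 of TPM in the dry libraries and 3.65% ± 0.282 at DoG0 (SD, n = 3 each). In the dry libraries the share was 6.58% in A, 5.20% in B and 7.23% in C, all above the 3.35%, 3.68% and 3.92% of the DoG0 libraries. The share was 2.90% ± 0.295 at DoG1 and 2.60% ± 0.277 at DoG2. It was 3.00% ± 0.151 at DoG3, 2.87% ± 0.218 at DoG4 and 3.16% ± 0.0872 at DoG5, where the libraries held 3.11%, 3.11% and 3.26% and none overlapped with the 2.37%, 2.52% and 2.91% of DoG2. A sum over members chosen by the rule was not tested. As a share of expected counts, which is not divided by transcript length, the group held 4.36% ± 0.719 in dry grain and 1.89% ± 0.154 at DoG0.

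**Figure D1:**
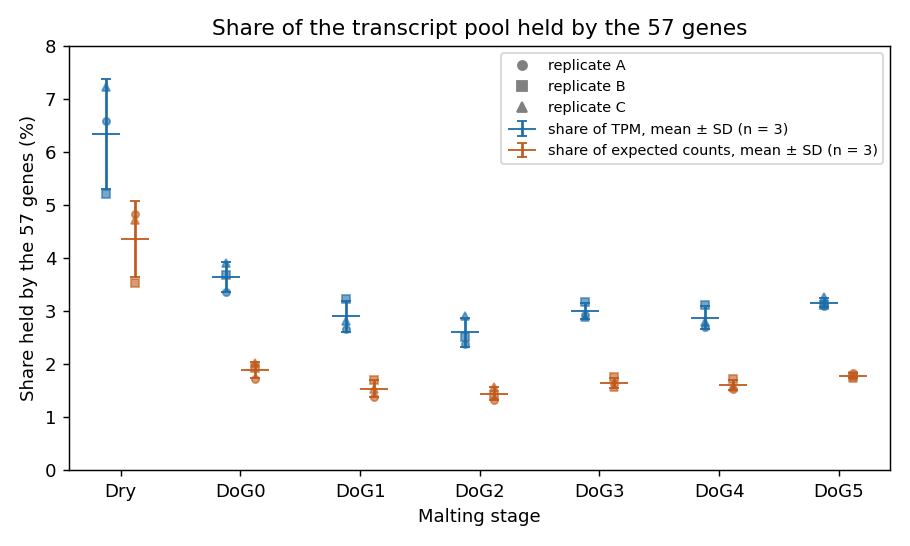
Share of TPM (blue) and of expected counts (orange) held by the 57 genes, in percent, at each malting stage; symbols are libraries, horizontal marks are means and bars are SD over 3 libraries. The share of TPM is highest in dry grain at 6.34%, lowest at DoG2 at 2.60% and 3.16% at DoG5.

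The group was led by few genes, and these few set much of its total. Members ranged from 411 to 5733 TPM in dry grain with a median of 678, and the 5 highest made up 32.0% of the group's TPM there, 18.8% at DoG2 and 27.8% at DoG5. In dry grain 18 members were among the 100 most abundant genes of all, and 2 were among the first 10. At DoG0 10 members were among the first 100, at DoG1 and DoG2 3, and at DoG5 7. The member placed lowest among all genes stood at place 317 in dry grain, while the lowest place of any member at DoG5 was 2675.

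The members kept very different parts of their dry level. In TPM the median member stood at 60.0% of dry at DoG0 (range 25.3% to 95.5%), 54.8% at DoG1, 47.9% at DoG2 and 51.5% at DoG5 (range 14.1% to 98.3%). The stage of the lowest mean was DoG0 for 10 members, DoG1 for 13, DoG2 for 17, DoG3 for 4, DoG4 for 8 and DoG5 for 5. Among the malted stages alone, DoG0 was the highest for 28 members and DoG5 for 11. For 34 members all 3 dry libraries lay above all 18 malted libraries, and for the other 23 at least 1 malted library overlapped with dry grain. These values describe what the rule selected.

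The size of the drop depended on the unit and on how the libraries were scaled. On CPM (read counts per library after TMM scaling, with no division by transcript length) the median member stood at 37.9% of dry at DoG0 and 34.2% at DoG5, against 60.0% and 51.5% in TPM. On CPM 11 members fell under 25% of dry at DoG0, a level that the rule bars in TPM. Of the 57 genes 56 passed the threshold as lower at DoG0 than in dry grain and 57 at DoG5 (edgeR quasi-likelihood test on counts, Benjamini-Hochberg adjusted p under 0.05), where 32% and 32.5% of all 20637 tested genes were called lower. The rule used these contrasts, so the counts are given as a description. By limma on log2(TPM + 1) they numbered 45 and 48. The median log2 fold change of the members at DoG0 against dry grain was -1.40 with TMM scaling. It was -1.16 with scaling by library size only and -0.71 by limma on log2(TPM + 1). A fixed length cancels when a gene is set against its own dry level, while the scaling of each library does not.

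**Figure D2:**
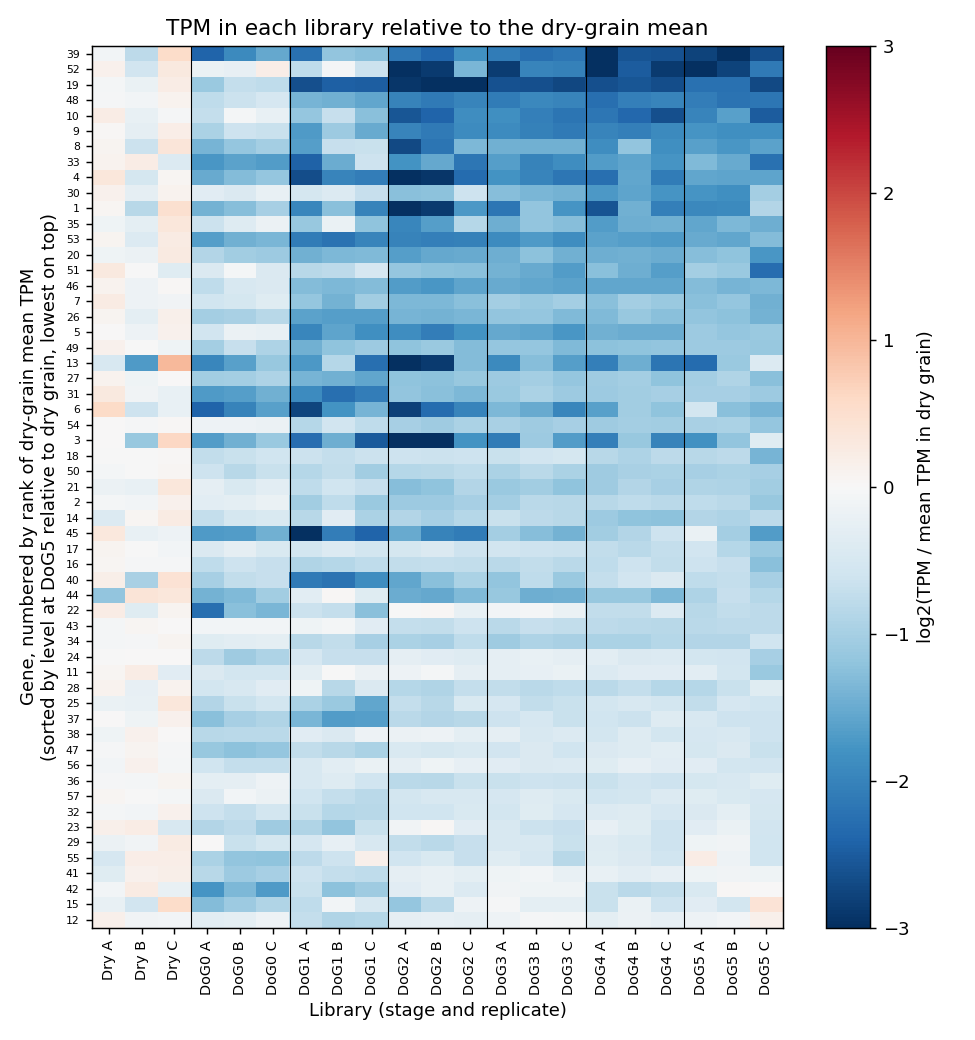
TPM of each of the 57 genes (rows, numbered by rank in dry grain) in each of the 21 libraries (columns), as log2 of the ratio to the gene's mean in dry grain; blue is below and red above that mean. Rows are sorted by the level at DoG5, from 14.1% of dry at the top to 98.3% at the bottom, and the malted columns are blue in nearly every row.

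The edges of the rule cut through a continuous range. The member with the lowest dry mean had 411 TPM, and the next gene that met all other conditions had 399. Out of the steep the nearest values inside and outside were 25.3% and 24.7% of dry, and at the lowest stage they were 12.51% and 12.38%. The highest over the lowest stage mean was 1.54 for the flattest member and 1.41 for the nearest gene left out. Of the 328 abundant dry-grain genes 167 were higher at another stage, 74 were highest in dry grain but at 25% of it or less out of the steep, 26 fell to 12.5% or less later, and 4 changed too little.

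Members were short, as were other abundant dry-grain genes. The rule is set on TPM, in which a short transcript needs fewer reads to reach 400, so the length is not independent of the choice. The rule on CPM would give 115 genes of which 34 are members, a change that is not one of length alone. On CPM 46 of the 57 met the level of 400 in dry grain, 46 the limit at DoG0 and 48 the limit at every stage. In the limits relative to dry grain a fixed length cancels. Relative length, the ratio of expected count to TPM scaled to a median of 1 in each library, had a median of 0.533 over the members (range 0.197 to 1.29) and 0.956 over all 21418 genes with a value. It was 0.626 over the 271 other genes with at least 400 TPM in dry grain and 0.479 over the 74 of them that stood at 25% of dry or less out of the steep. Only 3 of the 57 had a relative length above 1. Expected counts that were not whole numbers in at least 1 library, a sign of reads shared with similar transcripts of other genes, were seen in 29 members or 50.9%, in 57.6% of the 271 other abundant genes and in 18.7% of the genes with a length. Values of those 29 members are less certain for that reason, to different degrees. Some had such a count in 1 library only, as ranks 4 and 10, and others in all 21, as ranks 6 and 16.

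By the chromosome code in the ID, 15 members lay on 2H and 14 on 5H, 8 on 1H, 7 on 3H, 5 each on 4H and 6H and 3 on 7H. Chromosome 2H held 26.3% of members, 16.2% of the 328 abundant genes and 16.2% of all genes. Chromosome 5H held 24.6%, 17.4% and 15.5%. Neighbouring members with IDs at most 100 apart made 3 pairs, all of chromosome 5H. Such members share a position and perhaps a sequence, so the share of 5H does not come from independent genes. Whether members of the other chromosomes are related was not tested.

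The contrasts between malted stages hold no dry library and were tested. The rule limits these levels to between 12.5% and 100% of dry but does not name which malted stage is higher. It does bear on these contrasts: each malted mean is capped by dry grain, and DoG0 had to stay above 25% where later stages could go down to 12.5%, so rises are limited and falls after DoG0 have more room than rises. The shares over all genes carry no such limits, are printed for reference, and an excess or lack of members against them cannot be told apart from the choice. Where a count from a fit with fewer libraries has no such share beside it, it describes the members alone. Between DoG0 and DoG1 more members fell than rose. Of the 57 genes 27 fell, where 23.8% of all tested genes were called lower, and 4 rose, where 28.4% of all tested genes did (edgeR adjusted p under 0.05). Of the members 47.4% fell and 7.02% rose. The median log2 fold change over the members was -0.46, against 0.06 over all tested genes. Scaling by library size gave 23 falls and 9 rises (17.9% and 32.5% of all genes), limma on log2(TPM + 1) gave 25 and 8 (18.6% and 30.6%), and a fit without the trend over transcript length gave 35 and 1 (31.7% and 22.7%). Only 2 rose without DoG0 replicate A, and 2 without DoG0 replicate C.

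The member of rank 19, a gene of chromosome 1H, had the largest fall of the first day among the 57. Its dry libraries had 936, 853 and 1129 TPM and its DoG0 libraries 446, 590 and 571. At DoG1 it had 157, 178 and 175 TPM, below every DoG0 library (log2 fold change -1.79, SE 0.16, edgeR adjusted p = 3.29e-07). It then stayed between 119 and 205 TPM in all 12 later libraries, at 12.5% of dry at DoG2, just inside the rule. Rank 5, of chromosome 2H, stood at 80.4% of dry at DoG0, with 1740, 2302 and 2217 TPM against 2631, 2328 and 2822. It fell to 669.8, 870 and 727 TPM at DoG1 (log2 fold change -1.60, SE 0.16, edgeR adjusted p = 1.02e-06). The largest rise was that of the member of rank 44, of chromosome 7H. It had 184, 196 and 238 TPM at DoG0 and 394, 500 and 384 at DoG1 (log2 fold change 0.92 with SE 0.22, edgeR adjusted p = 0.00188). At DoG2 it fell back to 174, 169 and 197 (-1.07 with SE 0.22, adjusted p = 0.000995). The dry libraries of this gene disagreed, with 215 TPM in A, 638 in B and 622 in C, so A was within the range of the malted libraries.

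Rank 2, of chromosome 4H with whole counts throughout, was the highest of the 57 at each malted stage. It had 4224, 4166 and 4835 TPM in dry grain, 3523, 3623 and 3840 at DoG0 and 2125, 2607 and 2042 at DoG1, and these 3 stages did not overlap. The fall of the first day passed (log2 fold change -0.82, SE 0.14, edgeR adjusted p = 0.000155). Afterwards its 12 libraries lay between 1991 and 2591 TPM, and no later step passed.

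On the second day rises outnumbered falls. Of the 57 genes 16 rose, or 28.1%, where 19.7% of all tested genes were called higher, and 6 fell, or 10.5%, where 17% were called lower (edgeR adjusted p under 0.05). The balance differed between fits: scaling by library size gave 13 rises and 10 falls (15.8% and 22.0% of all genes). A limma fit, which changes the unit, the scaling and the test together, gave 12 of each (14.2% and 24.9%). Rank 22, of chromosome 3H, had 482, 463 and 319 TPM at DoG1 and 747, 776 and 645 at DoG2 (log2 fold change 0.96, SE 0.25, edgeR adjusted p = 0.00669). In TPM that brought it to 95.8% of dry, from 33.7% at DoG0, and at DoG5 it had 423, 449.5 and 436 TPM or 57.7%. In CPM it stayed lower, with 812, 402 and 527 in dry grain and 364, 393 and 314 at DoG2. Without DoG1 replicate B 3 fell.

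For 9 of the 57 members the fall of the first day was followed by a called rise on the second, a sequence shown by 3.47% of all tested genes. The DoG1 libraries enter both contrasts, so a low value there gives a fall and a rise together. The 9, of ranks 12 to 57, had a median of 57.2% of dry at DoG0, 36.1% at DoG1, 55.9% at DoG2 and 65.9% at DoG5. The most abundant of them in dry grain was rank 12, of chromosome 3H, which had whole counts in all libraries. Dry grain had 1720, 1442 and 1463 TPM of it and DoG0 1248, 1250 and 1384. At DoG1 it had 932, 820 and 854 TPM, and at DoG2 1281, 1292 and 1277, with no overlap between the 2 stages. The fall of the first day passed (log2 fold change -0.70, SE 0.14, edgeR adjusted p = 0.000535), as did the rise of the second (0.74, SE 0.14, adjusted p = 0.000584). At DoG5 it had 1384, 1460 and 1703 TPM, or 98.3% of its dry mean in TPM, the highest such share in the group. In CPM it had 1552, 969 and 955 in dry grain and 693, 716 and 792 at DoG5. The near return to its dry level thus held in TPM and not in CPM. Rank 40 went from 57.2% of dry at DoG0 to 24.1% at DoG1 and 42.5% at DoG2, though its dry libraries ran from 288 TPM in B to 762 in C.

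After DoG2 no member passed the test between consecutive days. From DoG2 to DoG3 0 of the 57 genes were called, where 1.14% of all tested genes rose and 0.838% fell (edgeR adjusted p under 0.05). From DoG3 to DoG4 0 were called, against 0.0145% and 0.136%, and from DoG4 to DoG5 0, against 0.107% and 0.0194%. At an unadjusted p under 0.05 there were 3, 4 and 4 members, where 16%, 10.2% and 7.19% of all tested genes passed. DESeq2 called 0, 1 and 0 members, against 5.29%, 1.04% and 0.674% of all genes. Fits to the 6 libraries of each step alone called 4, 6 and 0 members, or 7.02%, 10.5% and 0%, against 12.9%, 6.10% and 0.0574% of all genes.

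**Figure D3:**
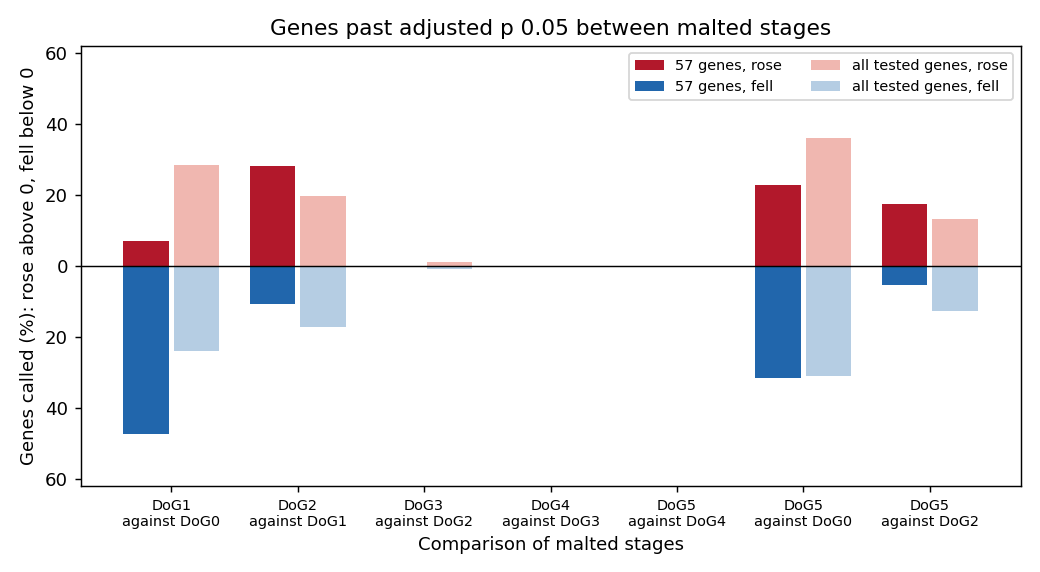
Percent of genes called higher (above the 0 line) or lower (below it) at adjusted p under 0.05 in 7 comparisons of malted stages, for the 57 genes (dark bars) and for all 20637 tested genes (pale bars). On the first day 47.4% of the 57 fell against 23.8% of all, and on the second day 28.1% rose against 19.7%.

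Over the whole of germination members went both ways. Between DoG0 and DoG5 13 of the 57 genes rose, or 22.8%, where 36% of all tested genes were called higher, and 18 fell, or 31.6%, where 30.8% were called lower (edgeR adjusted p under 0.05). In this fit the falling share was close to that of all genes, and in others it was not. A fit without the length trend, in which the median of all genes moved by -0.24 (log2), gave 3 rises and 33 falls, or 5.26% and 57.9% of members against 30.4% and 38.8% of all genes. The limma fit gave 11 and 23, or 19.3% and 40.4% against 33.2% and 32.1%. Without DoG0 replicate A 7 rose, and without DoG5 replicate A 8. Under the rule, members near their dry level have little room above, and those near its lower limit have little below. At DoG0 the 13 that rose stood at a median of 46.2% of dry, and the 18 that fell at 78.9%. DoG0 libraries enter both this level and the contrast, so the level and the fold change are not independent. Whether the rule shaped the split was not tested.

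The 2 members with the largest rise from DoG0 to DoG5 returned nearly to their dry level in TPM, though in the count test both were still below it. HORVU.MOREX.r3.5HG0465530, of chromosome 5H and rank 42, had 492, 617 and 448 TPM in the dry libraries and 151, 203 and 159 at DoG0. It had 329, 221 and 248 TPM at DoG1, 410, 442 and 393 at DoG2 and 486, 472 and 474 at DoG3. At DoG4 it was lower, with 327, 294 and 310 TPM, and at DoG5 it had 378, 531 and 523. Every DoG5 library lay above every DoG0 library (log2 fold change 1.52, SE 0.18, edgeR adjusted p = 7.29e-07). The mean at DoG5 was 91.9% of dry. It also rose on the first day (0.49, SE 0.17, adjusted p = 0.023) and on the second (0.83, SE 0.17, adjusted p = 0.0012). The replicates of the first-day rise overlapped in CPM and not in TPM. In CPM they had 99.6, 150 and 111 at DoG0 and 202, 145 and 163 at DoG1. The step down at DoG4 did not pass (-0.67, SE 0.17, adjusted p = 0.171), nor did the step up at DoG5 (0.64, SE 0.17, adjusted p = 0.243), although neither pair of stages overlapped.

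HORVU.MOREX.r3.2HG0188290, of chromosome 2H and rank 55, had 296, 484 and 482 TPM in the dry libraries and 216, 185 and 182 at DoG0. It had 244, 273 and 467 TPM at DoG1 and stayed between 237 and 326 in the 9 libraries of DoG2 to DoG4. At DoG5 it had 492, 378 and 278 TPM, all above DoG0 but far apart (log2 fold change against DoG0 1.05, SE 0.23, edgeR adjusted p = 0.000741). The mean at DoG5 was 91.1% of dry. It rose on the first day (0.64, SE 0.23, adjusted p = 0.0279) and passed no later consecutive step.

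The 2 members with the largest fall from DoG0 to DoG5 stood at 95.5% and 80.6% of dry in TPM out of the steep and were far lower by DoG2. HORVU.MOREX.r3.5HG0496690, of chromosome 5H and rank 52, had 474, 290 and 529 TPM in the dry libraries and 376, 363 and 496 at DoG0, and these stages overlapped. It had 255, 411 and 274 TPM at DoG1 and 27.1, 58.9 and 167 at DoG2, a fall (log2 fold change -1.73, SE 0.48, edgeR adjusted p = 0.00878) that left replicate C well above A. At DoG5 it had 48.3, 62.7 and 98.5 TPM, or 16.2% of dry (log2 fold change against DoG0 -2.52, SE 0.49, adjusted p = 0.000217). It was the only member not called lower at DoG0 than in dry grain.

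HORVU.MOREX.r3.1HG0018260, of chromosome 1H and rank 10, had 1956, 1459 and 1654 TPM in the dry libraries and 1027, 1612 and 1445 at DoG0. It fell to 762, 1048 and 706 TPM at DoG1 (log2 fold change -0.83, SE 0.28, edgeR adjusted p = 0.0187), a change in which the replicates overlapped. It fell further, to 284, 318 and 462 TPM, at DoG2 (-1.07, SE 0.28, adjusted p = 0.00629). At DoG5 it had 432, 546 and 299 TPM, or 25.2% of dry (log2 fold change against DoG0 -1.63, SE 0.28, adjusted p = 7.43e-05).

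**Figure D4:**
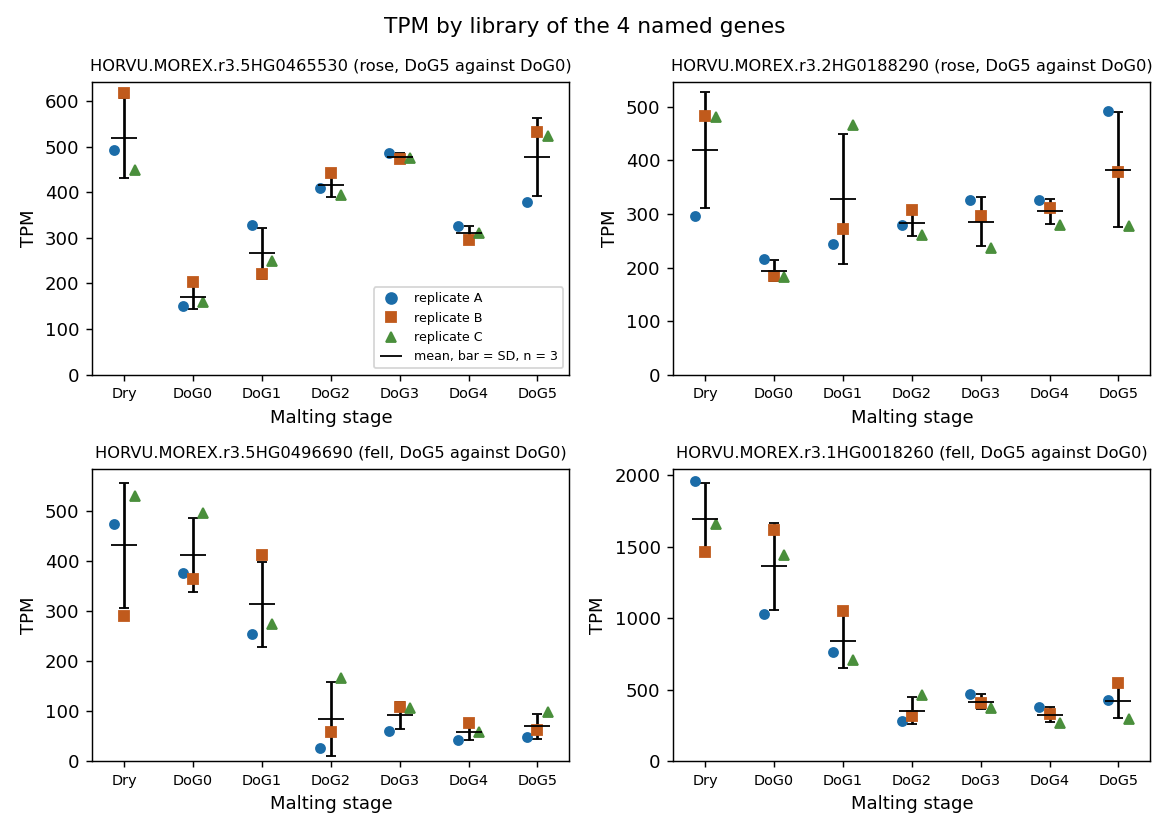
TPM in each library of the 2 genes that rose most and the 2 that fell most from DoG0 to DoG5, by malting stage; symbols are replicates A, B and C, marks are means and bars are SD (n = 3). The upper pair reach 91.9% and 91.1% of dry grain at DoG5, and the lower pair 16.2% and 25.2%.

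Several of the most abundant members were lowest at DoG2 and higher at DoG5. A comparison of DoG5 with DoG2, added after this was seen, called 10 of the 57 genes higher, or 17.5%, and 3 lower, or 5.26%, where 13.2% and 12.6% of all tested genes were called (edgeR adjusted p under 0.05). The comparison was chosen from these same values, so its p-values are not those of a planned test. The counts were small and were lower with fewer libraries: 5, 4, 5, 4 and 6 rose without DoG2 replicates A and B and DoG5 replicates A, B and C. The share over all genes was lower too, at 8.52%, 8.46%, 11.1%, 9.05% and 10.8%. As for falls, 0, 0 and 1 fell without DoG2 replicates A, B and C. Without DoG5 replicate A 5 fell, and without DoG5 replicate C 1. A fit without the length trend gave 8 of each, and limma on log2(TPM + 1) gave 9 rises and 5 falls. No share over all genes is given for these falls or for these fits, so the counts describe the members alone. Rank 4, of chromosome 4H, had 334, 472 and 724 TPM at DoG2 and 1204, 1193 and 1201 at DoG5 (log2 fold change 1.24, SE 0.30, edgeR adjusted p = 0.00702). It had 4497, 2474 and 3738 TPM in dry grain, so DoG5 was at 33.6% of dry. Rank 5 went from 717, 619 and 752 TPM at DoG2 to 1228, 1155 and 1196 at DoG5 (0.78, SE 0.16, adjusted p = 0.00229). Rank 6, of chromosome 7H, with counts that were not whole in all 21 libraries, went from 364, 509.7 and 637 TPM to 1710, 1056 and 966 (1.32, SE 0.41, adjusted p = 0.026).

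A run of 3 closely numbered members of chromosome 5H held a sizeable part of the group's TPM and shared the order of replicates in dry grain and at DoG2. They had ranks 1, 3 and 13, their IDs lay 10 and 20 apart, and each had counts that were not whole in 11, 18 and 21 of the 21 libraries, so reads may have been divided among them and their levels are not independent. Together they held 17.0% of the group's TPM in dry grain, 6.88% at DoG2 and 14.8% at DoG5. Their stage means did not all move alike. From DoG0 to DoG5 rank 1 went from 42.9% to 35.5% of dry in TPM. Rank 3 went from 38.2% to 49.9% and rank 13 from 34.4% to 47.1%. The member of rank 1 had 5956, 3201 and 8042 TPM in dry grain, 2144, 2378 and 2860 at DoG0 and 1483, 2414 and 1428 at DoG1. It had 380, 778 and 1746 TPM at DoG2 and 1494, 1521 and 3098 at DoG5. Replicates within a stage lay up to several fold apart, and it passed no test between malted stages (DoG5 against DoG2 log2 fold change 1.06, SE 0.48, edgeR adjusted p = 0.108). The member of rank 3 had 220, 469.6 and 1154 TPM at DoG2 and 1129, 1751 and 3083 at DoG5, and was called higher (1.68, SE 0.54, adjusted p = 0.0309). That comparison overlapped in TPM and not in CPM. Rank 13 had 78.2, 202 and 604 TPM at DoG2 and 298, 690 and 1110 at DoG5 (1.23, SE 0.65, adjusted p = 0.171).

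Another gene numbered within the same interval was no member, because its mean at DoG2 was below 12.5% of dry. It had a mean of 4948 TPM in dry grain, 2445 at DoG0, 529.9 at DoG2 and 969.9 at DoG5. Its libraries followed the same order as those of the member of rank 1 at each of the 7 stages. It had 5716, 3068 and 6060 TPM in dry grain, 119, 397 and 1074 at DoG2 and 420, 738 and 1752 at DoG5. Without the 3 members the other 54 held 5.22% ± 0.487 of TPM in dry grain, 3.20% ± 0.206 at DoG0, 2.41% ± 0.131 at DoG2 and 2.69% ± 0.144 at DoG5 (SD, n = 3 each).

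**Figure D5:**
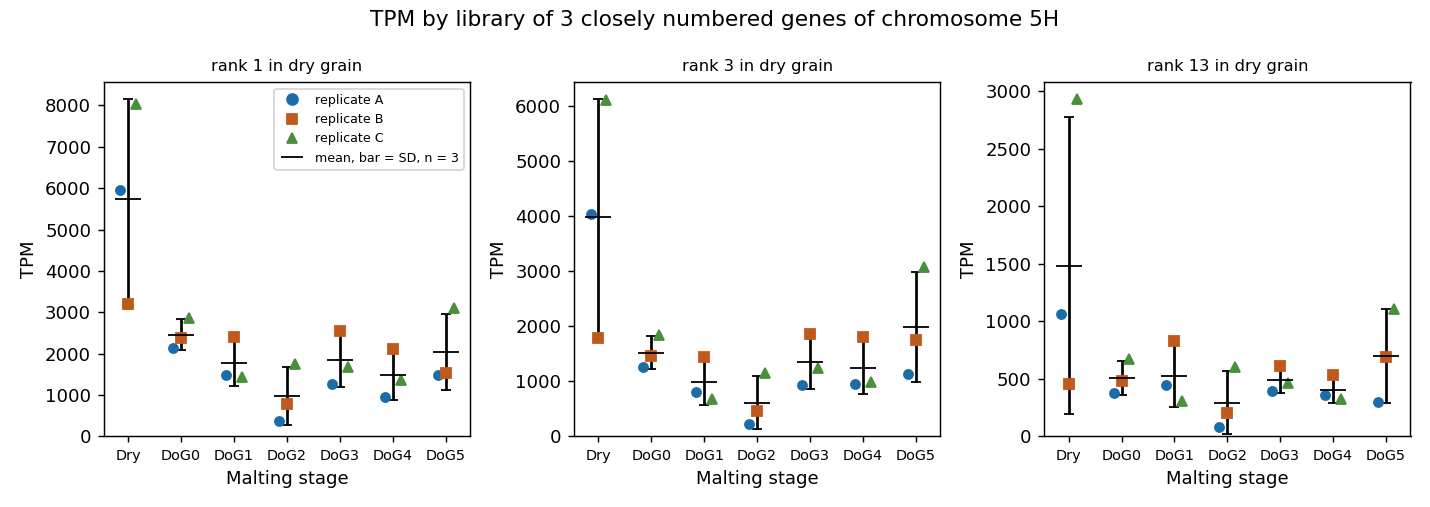
TPM in each library of the 3 closely numbered members of chromosome 5H (ranks 1, 3 and 13), by malting stage; symbols are replicates A, B and C, marks are means and bars are SD (n = 3). Dry replicate B is the lowest and dry replicate C the highest in each panel, and at DoG2 replicate A is the lowest and C the highest.

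The members with the widest spread at DoG2 had a common order of replicates, while most members varied little there. The coefficient of variation (SD as a percent of the mean over 3 libraries) had a median of 16.1% in dry grain (range 1.22% to 86.9%), 9.81% at DoG0, 12.5% at DoG1 and 10.2% at DoG5, and between 6.06% and 6.37% at DoG2 to DoG4. Over the 271 other abundant dry-grain genes the median in dry grain was 22.0%. At DoG2 8 members varied by 30% or more, those of ranks 1, 3, 4, 8, 13, 15, 35 and 52. In all 8 replicate C was the highest and A the lowest at DoG2, in all 8 replicate B was the lowest in dry grain, and in 7 of 8 replicate B was the highest at DoG1. Over all 57 members DoG2 replicate C was the highest of its stage for 35, or 61.4%, against 35.1% of the 271 other abundant genes. Dry replicate B was the lowest for 59.6% of members and 19.9% of the others. Ranks 1, 3 and 13 are the closely numbered genes of chromosome 5H that may share reads, so the 8 are not independent. All members share libraries, and this order was not tested.

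At the other end 9 of the 57 members were called in none of the 7 comparisons of malted stages, where 17.1% of all tested genes were called in none, so the count says little about the members. They had ranks 1, 11, 13, 14, 16, 18, 28, 33 and 56, so 2 of them were the widely varying genes of chromosome 5H. Rank 16, of chromosome 6H, varied little until DoG4. It had 1143, 1078 and 1072 TPM in dry grain, and its libraries lay between 586 and 717 TPM from DoG0 to DoG4. At DoG5 it had 715, 684 and 459, the last in replicate C, the library with the lowest total. Its stage means stayed between 55.7% and 62.1% of dry, and its log2 fold change from DoG0 to DoG5 was -0.08 (SE 0.17, edgeR adjusted p = 0.691), an estimate that leaves room for a change of either sign. Its count was not whole in any of the 21 libraries.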

How the data were processed

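The authors deposited expected counts (estimated read counts per gene) and TPM for 21 libraries of poly-A selected RNA (a stranded kit, per the labels' protocols). Per the submitters' processing notes the tools included STAR and RSEM, with no version or role. As for genome build, annotation and strand setting, each is not given in the sources used here. None of the 35826 IDs matched the 58438 genes of the reference table (assembly MorexV3_pseudomolecules_assembly), so the gene lists and marker lists meant to be matched by name could not be used, and no sequence is shown. The members, their rule and the comparisons were chosen with earlier results of these data known.

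Expected counts were rounded. filterByExpr by stage (minimum count 10, minimum total 15) kept 20637 genes, all 57 members among them. A quasi-likelihood model of 7 stage means with TMM scaling was fitted to all libraries (edgeR 4.0.16, R 4.3.3), with Benjamini-Hochberg adjustment of p-values over all tested genes, with 0.05 as the threshold and no minimum fold. The fit was tested on simulated data. SE is the absolute log2 fold change over the square root of F. Named IDs are the 2 rising and 2 falling members with the largest fold change from DoG0 to DoG5 among those called without overlap of replicates in CPM; other members are given by rank and were picked after their values were seen. Alternatives were DESeq2 1.42.0, limma 3.58.1 on log2(TPM + 1), library size only, no filter, 2 stages alone, a replicate block, removal of the trend of log2 CPM over relative length (lowess, span 0.3; lengths from libraries with at least 10 counts and 0.5 TPM) and leaving out each library. Counts were called whole within 1e-09. P-values set each difference between stages against the spread between these samples within the 7 stages, which may be technical.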

Additional observations from a re-analysis of the deposited data

How the results depend on the processing

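The number of members was 57, and 87 or 43 with 300 or 500 TPM in place of 400, and 39 with the highest over the lowest mean above 2. It ran from 49 (without Dry replicate B, with 45 of the 57 kept) to 63 when 1 library was left out, and without Dry replicate A 52 of the 57 were kept. With TMM-scaled CPM in every part of the rule it was 115, of which 34 were members. As a share of expected counts the members held 4.36%, 1.89%, 1.54%, 1.44%, 1.65%, 1.61% and 1.79% from Dry to DoG5. Leaving out 1 library of a stage gave shares of TPM of 5.89% to 6.90% in Dry, 3.52% to 3.80% at DoG0, 2.74% to 3.02% at DoG1, 2.45% to 2.72% at DoG2, 2.91% to 3.05% at DoG3, 2.75% to 2.96% at DoG4 and 3.11% to 3.18% at DoG5. The median level relative to dry grain was 37.9% at DoG0 and 34.2% at DoG5 in CPM.

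Between DoG0 and DoG1 rising members numbered 9 with library size only, 8 with limma, 1 with the length trend removed and 2 with the 6 libraries alone. Between DoG1 and DoG2 falling members numbered 10 with library size only and 12 with limma. Between DoG0 and DoG5 3 rose and 33 fell with the length trend removed. Between DoG2 and DoG5 falling members numbered 5 with limma and 8 with the length trend removed, and 2 with the replicate block. On the third day 4 and on the fourth 6 members were called with the 6 libraries alone, and 1 on the fourth with DESeq2. Leaving out 1 library gave 2 to 4 rising and 22 to 29 falling on the first day, 13 to 15 and 3 to 8 on the second, 7 to 14 and 16 to 22 from DoG0 to DoG5, 4 to 7 and 0 to 5 from DoG2 to DoG5, 0 on each later day, and 55 to 56 and 54 to 57 lower than dry grain at DoG0 and DoG5. These counts have no share over all genes beside them here and describe the members alone. The cause was not tested.

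The scalings moved the median log2 fold change of all tested genes: by 0.14 on the first and -0.11 on the second day with library size only, by -0.13 on the second with limma, and by -0.18 on the first day and -0.24 from DoG0 to DoG5 with the length trend removed. The replicate letters did not pair the libraries: 11 of 63 same-letter pairs had a correlation of deviations from the stage means over 0.1 (-0.35 to 0.20), and 9 of 21 libraries were closest to their own letter. With the replicate block 10 rose and 18 fell from DoG0 to DoG5, 4 and 27 on the first day and 14 and 6 on the second. The 4 named genes kept direction and call from DoG0 to DoG5 in each alternative run. The lowest count of a member in any library was 353.66, so no value rests on few counts.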
